A study of Ovis aries with 7 samples.

Results

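GRM7, HOMER and CAMK2 are 3 genes of the glutamate synapse that an oligonucleotide array measured in the hypothalamus of fetal sheep. They are 3 of 957 array genes named here, and they were taken as every probe that the scanner files name for them, 5 probes of 15008, with 2 for GRM7, 2 for HOMER and 1 for CAMK2. The genes were picked because they were higher after hypoxia in these same arrays, so their difference between the groups is described below and carries no test. The fetuses were in late gestation and carried chronic catheters. In the hypoxia group (3 fetuses) the ewe breathed gas low in oxygen for 30 min and normal gas for the next 30 min, so the tissue was taken 60 min after onset. In the control group (4 fetuses of matched age) oxygen stayed normal for the same 60 min. Each array held the RNA of the whole hypothalamus of 1 fetus, in which fewer cells of a type and less RNA per cell cannot be told apart. All 3 hypoxia arrays lay on slide 1, with control replicates 1 and 2 on slide 2 and control replicates 3 and 4 on slide 3. Slide and group therefore cannot be told apart.

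GRM7 encodes a metabotropic glutamate receptor, a receptor that signals through G proteins and lowers transmitter release. It is known mainly from presynaptic terminals, so the working name of the set, glutamate receptor and postsynaptic genes, describes HOMER and CAMK2 better than GRM7. Homer proteins are postsynaptic scaffolds that tie metabotropic glutamate receptors of group I, such as the product of GRM5, to calcium stores and to other scaffolds. CAMK2 names the calcium- and calmodulin-dependent protein kinase that is abundant in the postsynaptic density and phosphorylates AMPA-type glutamate receptors. In the hypothalamus, glutamate is a main excitatory input to the neurons that drive the pituitary and the autonomic outflow.

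The probe sequences show how independent the 5 readings are. They are printed 5′ to 3′ as the scanner files give them, and capitals mark the stretch that the 2 probes of a gene share.
GRM7 probe 1: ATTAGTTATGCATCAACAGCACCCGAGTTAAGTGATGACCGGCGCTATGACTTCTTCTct
GRM7 probe 2: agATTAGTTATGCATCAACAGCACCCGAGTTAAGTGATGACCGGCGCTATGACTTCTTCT
HOMER probe 1: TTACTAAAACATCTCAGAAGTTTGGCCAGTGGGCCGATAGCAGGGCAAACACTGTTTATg
HOMER probe 2: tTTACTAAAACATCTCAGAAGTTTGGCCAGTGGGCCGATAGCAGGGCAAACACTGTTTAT
CAMK2 probe: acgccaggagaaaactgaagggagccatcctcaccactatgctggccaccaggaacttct

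Each probe has 60 bases. The GRM7 probes start 2 bases apart and share 58 bases, and the HOMER probes start 1 base apart and share 59. The 2 probes of a gene are therefore repeat readings of 1 target stretch on the same RNA and not separate evidence for the gene. GC content was 45.0% for both GRM7 probes, 43.3% and 45.0% for the HOMER probes and 55.0% for CAMK2, against a median of 43.3% over the array. No other probe of the array held a 16-base stretch of any of the 5. The longest match to a probe of another gene was 11 bases for GRM7, 12 for HOMER and 13 for CAMK2. The files name the HOMER and CAMK2 probes only to the gene family, so the paralog is not given, and they place the probes at no genome coordinate.

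All 5 probes were well above background on 7 of 7 arrays, none was saturated, and 5 of 5 passed the filter on dim probes. A level below is the log2 of the processed intensity relative to the 75th percentile of its array, so that -1 means 2 times dimmer than that percentile. A level belongs to its own probe, and the order of the 5 levels is no order of transcript abundance. The 2 GRM7 probes gave 50.1 to 107 intensity units, while the dimmest spots called well above background lay at 11.9 to 21.3 units.

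GRM7 was higher in the hypoxia group on both probes, by 1.60 and 1.58 times. For probe 1, hypoxia replicates 1, 2 and 3 had levels of -4.60, -4.60 and -4.97, and control replicates 1 to 4 had -5.30, -5.33, -5.43 and -5.55. The groups did not overlap, and hypoxia replicate 3 lay nearest the controls. For probe 2, the hypoxia levels were -4.71, -4.38 and -5.12, and the control levels were -5.33, -5.34, -5.52 and -5.39. Hypoxia replicate 3 was again the lowest of its group, and the hypoxia arrays spread over 0.75 against 0.19 for the controls. The means were -4.72 ± 0.21 (SD, n = 3) and -5.40 ± 0.11 (SD, n = 4) for probe 1, a log2 difference of 0.68 (SE 0.13). Probe 2 gave means of -4.74 ± 0.37 (SD, n = 3) and -5.40 ± 0.09 (SD, n = 4), a log2 difference of 0.66 (SE 0.18). The raw spot signal of probe 1 was 147 to 182 in hypoxia and 122 to 143 in controls, over a local background of 55 to 63 and 60 to 71. With normexp background correction the GRM7 differences were 0.42 and 0.44, a drop by more than 1.5 times.

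HOMER was higher in hypoxia by 1.60 times on probe 1 and 1.81 times on probe 2. For probe 1, the hypoxia levels were -1.62, -1.56 and -1.59, and the control levels were -2.11, -2.04, -2.38 and -2.54. The 3 hypoxia arrays lay within 0.06 of each other, whereas the controls spread over 0.50, with replicates 3 and 4 below replicates 1 and 2. For probe 2, the hypoxia levels were -1.59, -1.62 and -1.57, and the control levels were -2.70, -2.15, -2.44 and -2.48. Here control replicate 1 was the lowest and control replicate 2 the highest of the controls, and the groups again did not overlap. Probe 1 had means of -1.59 ± 0.03 (SD, n = 3) and -2.27 ± 0.23 (SD, n = 4), a log2 difference of 0.68 (SE 0.14). The means of probe 2 were -1.59 ± 0.02 (SD, n = 3) and -2.45 ± 0.23 (SD, n = 4), a log2 difference of 0.85 (SE 0.14).

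CAMK2 was higher in hypoxia by 1.38 times. Its hypoxia levels were -0.78, -0.65 and -0.87, and its control levels were -1.20, -1.29, -1.30 and -1.15. The groups did not overlap, and both were narrow, with ranges of 0.21 and 0.16. The means were -0.77 ± 0.11 (SD, n = 3) and -1.24 ± 0.07 (SD, n = 4), a log2 difference of 0.47 (SE 0.10).

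**Figure D1:**
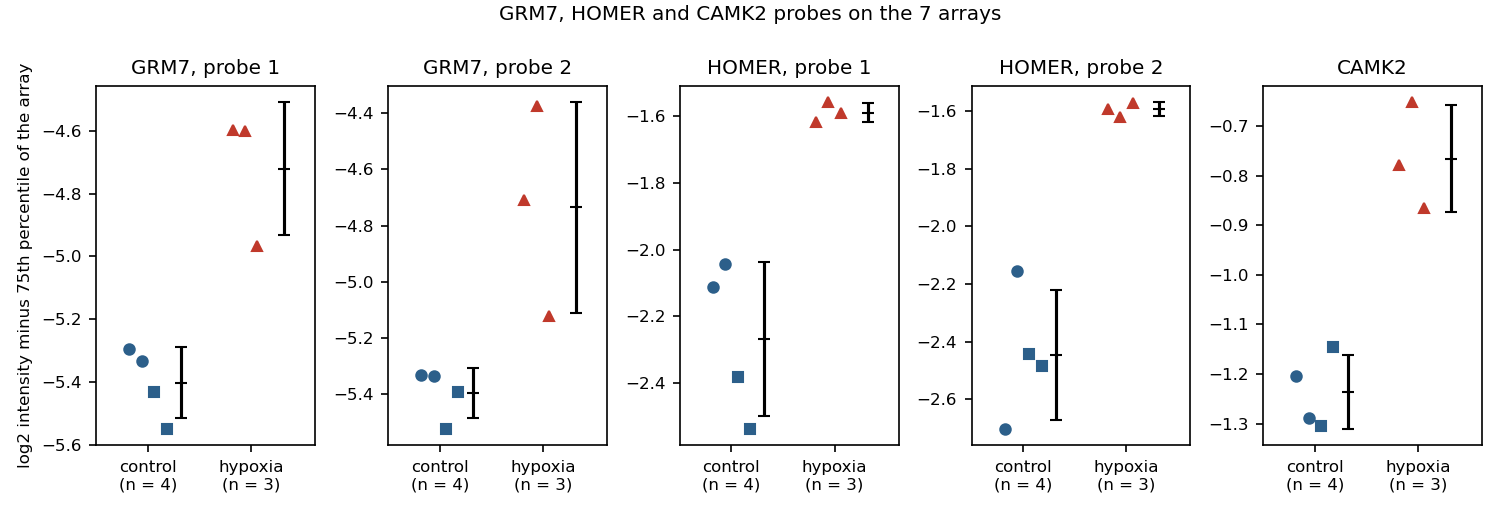
Levels of the 5 probes of GRM7, HOMER and CAMK2 on the 7 arrays (y axis, log2 intensity minus the 75th percentile of the array, with a separate scale per probe). Triangles are hypoxia arrays (slide 1), circles are control replicates 1 and 2 (slide 2), squares are control replicates 3 and 4 (slide 3), and bars give the group mean ± 1 SD. On each probe the 3 hypoxia arrays lie above the 4 controls, and for HOMER the hypoxia arrays lie within 0.06 of each other.

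On all 5 probes each hypoxia array lay above each control array. Over the whole array, 8.75% of the tested probes had such groups that did not overlap with hypoxia higher, and 7.38% had hypoxia lower. Since the genes were chosen for this contrast, their count is not read against that share. The gap between the lowest hypoxia and the highest control level was 0.33 and 0.21 for the GRM7 probes, 0.43 and 0.54 for the HOMER probes and 0.28 for CAMK2. The median log2 difference over all tested probes was 0.03, with 54.7% of them higher in hypoxia.

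The 2 control slides give separate reference points. Against control replicates 1 and 2, the log2 differences of the GRM7 probes were 0.59 and 0.60, and against control replicates 3 and 4 they were 0.77 and 0.72. HOMER probe 1 differed by 0.49 from the former and by 0.87 from the latter, and its control levels were 0.38 lower on slide 3 than on slide 2. HOMER probe 2, which shares 59 bases with it, differed by 0.84 and 0.87. CAMK2 gave 0.48 and 0.46. The sign could not change here, because every hypoxia array lay above every control array on each probe. Only the sizes are informative, and the only probe whose value moved by over 1.5 times between the slides was HOMER probe 1. No control lay on the slide of the hypoxia arrays, so a shift of that slide was not tested.

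The overlapping probes allow a check of how well a reading repeats on the same RNA. For GRM7, probe 2 minus probe 1 ran from -0.16 to 0.23 over the 7 arrays, with an SD of 0.14. For HOMER it ran from -0.59 to 0.05, with an SD of 0.22, and the value of -0.59 came from control replicate 1. Without that array the other readings of HOMER lay within -0.11 to 0.05. Over the 211 probe pairs of the array whose starts lie within 2 bases, the median SD was 0.14 and the 90th percentile 0.44, so GRM7 sat at the median and HOMER above it. The hypoxia differences of the 2 probes were 0.02 apart for GRM7 and 0.17 apart for HOMER, against a median of 0.08 and a 90th percentile of 0.29 over such pairs.

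**Figure D2:**
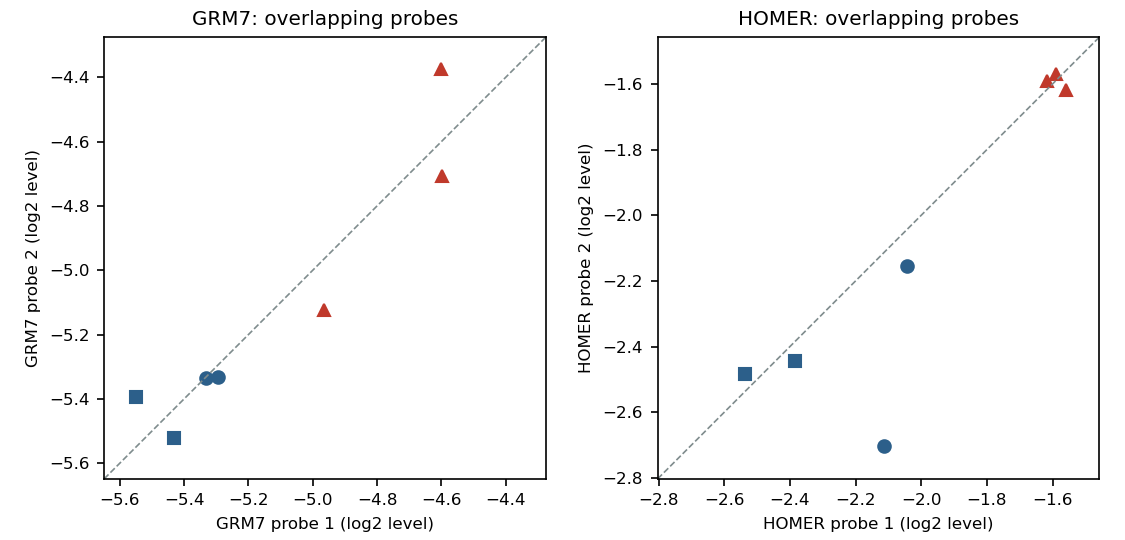
Log2 level on probe 2 (y axis) against probe 1 (x axis) for GRM7 (left) and HOMER (right), 1 point per array, with triangles for hypoxia, circles for control replicates 1 and 2, squares for control replicates 3 and 4, and a dashed line where both readings are equal. For both genes the 3 hypoxia arrays lie above the 4 controls on both axes, and the point farthest from the line is HOMER on control replicate 1, at -0.59.

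Across the 7 arrays the 3 genes varied together, which the choice of genes by group difference builds in. The correlation of levels (Pearson's r, main probe of each gene, given as a description) was 0.93 for GRM7 with HOMER, 0.92 for GRM7 with CAMK2 and 0.84 for HOMER with CAMK2. After the mean of each group was subtracted, r was 0.53, 0.35 and -0.24. With 7 arrays on 3 slides, these values describe this set of fetuses only.

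Among 830 other genes named here, those with levels most like GRM7 over the 7 arrays were NFAT5, a transcription factor of the response to osmotic stress (r = 0.94), and SLC1A2, a glutamate transporter found chiefly in astrocytes (r = 0.93). HOMER (r = 0.93), CAMK2 (r = 0.92) and NFKBIA, an inhibitor of NF-kappa-B (r = 0.92), followed. HOMER was most like NFAT5 (r = 0.98), KITLG, the ligand of the KIT receptor (r = 0.97), a gene listed as CLC4 (r = 0.97), GRM7 and CITED2, a transcriptional co-regulator (r = 0.92). CAMK2 was most like GGCX, the enzyme of vitamin K-dependent carboxylation (r = 0.96), NPPC, which encodes C-type natriuretic peptide (r = 0.94), GRM7, GJA1, an astrocyte gap junction gene (r = 0.92), and CD247, a chain of the T-cell receptor complex (r = 0.92). All of these genes were higher in hypoxia, with log2 differences from 0.28 for GGCX to 1.48 for KITLG. That direction is built in, since they were ranked by likeness to genes chosen for higher values in hypoxia. An r over 0.9 was reached by 8 genes for GRM7, 7 for HOMER and 6 for CAMK2, and by 7, 8 and 7 genes after the group means were subtracted.

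Within the groups the nearest genes were others. After subtraction of the group means, GRM7 was most like ERP29 (r = 0.97), NARS (r = 0.96), SLC25A38 (r = 0.96), CYP2J (r = 0.95) and ALDOA (r = 0.94). HOMER was most like TM7SF2 (r = 0.99), MYD88 (r = 0.98), ATP6V0C (r = 0.95), SLC12A4 (r = 0.94) and RCAN1 (r = 0.94). CAMK2 was most like TPT1 (r = 0.99), NPPC (r = 0.94), CD81 (r = 0.92), GUCA2A (r = 0.92) and ENDOG (r = 0.92). Of the genes nearest by level, NPPC was named again for CAMK2. How many genes would reach such r by chance with so few arrays was not tested, so these names are a description only.

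Values are given for 20 further measured genes of the glutamate synapse, out of 146 listed genes. The 146 include 22 genes of GABA signalling and 19 of presynaptic release, for which no values are given. By limma with Benjamini-Hochberg adjustment, 0 of these 20 were under an adjusted p of 0.05, as 2 of 12711 tested probes (0.0157%) were. At an unadjusted p under 0.05, 3 of the 20 were higher (GRIA1, CALM2 and SLC1A2) and 1 was lower (GLUD1), which is 20% against 15.7% of all tested probes (8.75% higher and 6.91% lower). The same 4 genes were those whose groups did not overlap, 15% with hypoxia higher against 8.75% of all tested probes. In all, 12 of the 20 were higher and 8 lower, with a median log2 difference of 0.12, beside 442 of 832 named genes higher and a median of 0.03. Between 11 and 14 of the 20 were higher under the other scalings and background corrections. Against control replicates 1 and 2 alone the median was 0.06, and without control replicate 3 it was 0.08. The number higher at an unadjusted p under 0.05 was 1 without hypoxia replicate 1, 5 without control replicate 4, 5 with the controls of slide 2 only and 1 with those of slide 3 only.

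Of the metabotropic glutamate receptors, the family of GRM7, values are given for 6 others. Of these 6, 4 were higher and 2 lower, with a median log2 difference of 0.22, 0 past the adjusted threshold and 0 at an unadjusted p under 0.05. The median was 0.13 with normexp and 0.15 with quantile normalization, and 2 of the 6 were under 0.05 unadjusted with the controls of slide 2 only. GRM5, a group I receptor to which Homer proteins bind, had hypoxia levels of -2.54, -2.54 and -2.00 and control levels of -2.31, -2.55, -2.69 and -2.61. The groups overlapped. GRM5 differed by 0.18 (SE 0.17, adjusted p = 0.623), and a probe 1 base away gave 0.13. Its highest array was hypoxia replicate 3, and without that array the log2 difference of GRM5 was 0.0011.

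Among the group III receptors, to which GRM7 belongs, the log2 differences were smaller than for GRM7 itself, which was chosen for its difference. GRM4 differed by 0.27 (SE 0.13, adjusted p = 0.362) and GRM6 by 0.32 (SE 0.17, adjusted p = 0.401), with overlapping groups for both. GRM8, the remaining receptor of that group, differed by -0.00 (SE 0.17, adjusted p = 0.992), and its sign turned under 4 of 13 other settings. In group II, GRM3 differed by -0.15 (SE 0.17, adjusted p = 0.690), a sign that turned against control replicates 3 and 4 alone. GRM2 differed by 0.55 (SE 0.40, adjusted p = 0.518), but it was well above background on only 2 hypoxia arrays and 1 control array. Whether GRM7 differs from its relatives in its response was not tested, because GRM7 was chosen on this contrast.

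**Figure D3:**
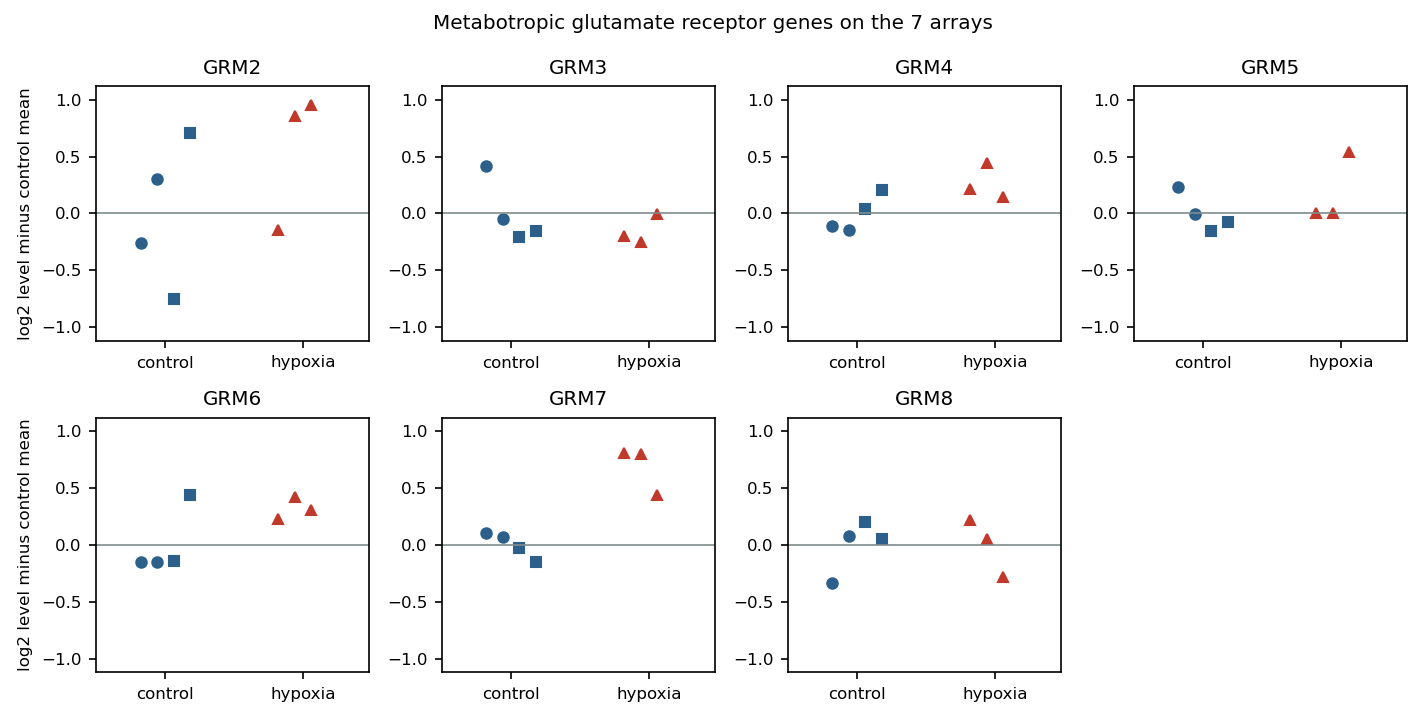
Levels of 7 metabotropic glutamate receptor genes on the 7 arrays, each shown as log2 level minus the mean of the 4 controls of that gene (y axis), for the probe with the highest mean level. Triangles are hypoxia arrays, circles control replicates 1 and 2, and squares control replicates 3 and 4. The groups do not overlap for GRM7, with a log2 difference of 0.68, they overlap for the other 6 genes drawn, and GRM2 spreads widest. For GRM4 and GRM6 the overlap comes from control replicate 4 alone.

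The ionotropic receptors are the ion channels through which glutamate excites neurons, and 5 of 22 listed were measured. GRIA1, an AMPA receptor subunit that CaMKII phosphorylates, had hypoxia levels of 0.58, 0.14 and 0.31 and control levels of -0.49, -0.54, -0.18 and 0.12. Its groups did not overlap, but hypoxia replicate 2 and control replicate 4 were 0.02 apart. GRIA1 differed by 0.61 (SE 0.19, adjusted p = 0.231), and an overlapping probe also gave 0.61. The difference of GRIA1 was 0.86 with the controls of slide 2 only and 0.37 with those of slide 3 only, where 0 of the 5 ionotropic receptors had an unadjusted p under 0.05. The other AMPA receptor subunits differed by 0.10 for GRIA2 (SE 0.10), 0.25 for GRIA3 (SE 0.16) and -0.04 for GRIA4 (SE 0.13). GRIN1, the obligatory NMDA receptor subunit, differed by -0.07 (SE 0.24, adjusted p = 0.908), and its 3 probes did not share a sign. Adjusted p-values of GRIA2, GRIA3 and GRIA4 were 0.654, 0.466 and 0.908. The signs of GRIA4 and GRIN1 turned against control replicates 3 and 4 alone, and that of GRIN1 also with normexp and with array weights.

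Of the genes around CAMK2, 4 of 35 listed were measured. CALM2, which encodes the calmodulin that activates CaMKII, had hypoxia levels of 5.54, 5.25 and 5.29 and control levels of 4.90, 4.95, 5.14 and 5.12. The groups did not overlap, and the log2 difference was 0.33 (SE 0.12, adjusted p = 0.266). PPP3CB, a catalytic subunit of the calmodulin-dependent phosphatase calcineurin, differed by -0.21 (SE 0.14, adjusted p = 0.485). CREB1, a transcription factor that calcium-dependent kinases phosphorylate, differed by 0.15 (SE 0.10, adjusted p = 0.470). NOS1, the neuronal nitric oxide synthase, gave 0.02 (SE 0.27, adjusted p = 0.977) on its main probe and 0.69 (SE 0.30, adjusted p = 0.326) on a probe 1 base away. NOS1 was dim, with levels from -7.08 to -6.16 on its main probe, which was well above background on 6 of 7 arrays. At that signal the NOS1 reading did not repeat on the same RNA. The sign of its main probe turned under 4 other settings, median and quantile scaling among them. Among the scaffolds, NRGN, a postsynaptic protein that binds calmodulin, was the 1 gene measured beside HOMER, differing by -0.07 (SE 0.11, adjusted p = 0.793).

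The genes that clear and break down glutamate went in both directions. SLC1A2 had hypoxia levels of -1.67, -1.90 and -2.40 and control levels of -2.53, -2.77, -3.04 and -2.68. As with GRM7, hypoxia replicate 3 was the lowest of its group, and the groups did not overlap. SLC1A2 differed by 0.76 (SE 0.20, adjusted p = 0.185), with 0.86 on an overlapping probe and 0.38 on a dimmer one. GLUD1, the mitochondrial glutamate dehydrogenase, had hypoxia levels of 2.85, 2.70 and 2.77 and control levels of 3.24, 3.41, 3.11 and 3.14. Every hypoxia array lay below every control array, and the mean differed by -0.45 on the log2 scale (SE 0.11, adjusted p = 0.175), with -0.40 and -0.36 on the other probes of GLUD1. SLC1A3, the other glutamate transporter of astrocytes, differed by 0.23 (SE 0.21, adjusted p = 0.602). The neuronal transporter gene SLC1A1 differed by -0.08 (SE 0.16), less than its SE, and with the opposite sign under normexp and against control replicates 3 and 4 alone. Of 22 listed genes of GABA signalling, 0 were named on the array, so inhibition was not analysed here, and neither was presynaptic release.

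**Figure D4:**
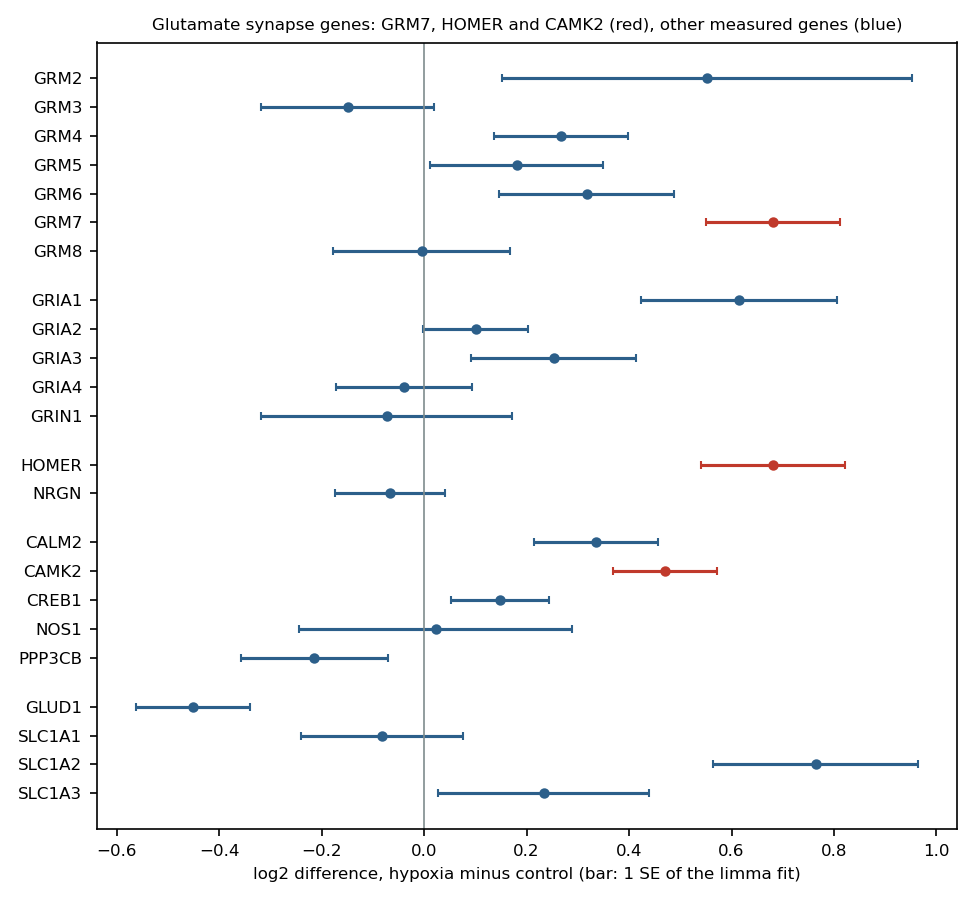
Log2 difference, hypoxia minus control (x axis), of GRM7, HOMER and CAMK2 (red, chosen for this difference) and of 20 other glutamate synapse genes (blue), grouped by role, with bars of 1 SE of the limma fit. The 3 red genes lie at 0.68, 0.68 and 0.47, and the blue genes run from -0.45 for GLUD1 to 0.76 for SLC1A2.

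Markers of cell types moved with the groups to different degrees. Of 13 listed neuron markers and 8 oligodendrocyte markers, 0 were named on the array, so the share of neurons behind GRM7, HOMER and CAMK2 could not be read from such genes. Of 18 listed genes of hypothalamic neurons, 12 were measured, with 6 higher and 6 lower and a median log2 difference of -0.03. That balance depended on the controls, since 10 were higher with a median of 0.32 against those of slide 2 only, and 9 were lower with a median of -0.34 against those of slide 3 only. The median also changed sign when single arrays were left out, from -0.10 without control replicate 2 to 0.095 without hypoxia replicate 3. Their summed level, in units of the 75th percentile of the array, was 26.6 to 33.7 in hypoxia and 22.8 to 37.2 in controls, so the labelled tissue showed its markers in both groups. Astrocyte markers, 7 of 9 measured, were higher for 6 genes, with a median of 0.45 and sums of 108 to 122 in hypoxia and 96.6 to 135 in controls. For SLC1A2, GJA1 and SLC4A4 the groups did not overlap, with hypoxia higher, which is 42.9% of the 7 against 8.29% of all named genes. VIM went the other way, at -0.49, and its groups did not overlap either. Of the 7, 0 passed the adjusted threshold. VIM and AQP4 had the highest levels of the 7 and weigh most in the sums. Genes of meninges and fibroblasts, 8 of 9 measured, were lower for 8, with a median of -0.78 and sums of 13.3 to 20.2 against 18.3 to 40.5. Their part in the values of GRM7, HOMER and CAMK2 was not tested.

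The other marker lists were short. Microglia and macrophage genes (4 of 10 measured) summed to 0.293 to 0.332 in hypoxia and 0.255 to 0.303 in controls, and endothelial genes (4 of 9) to 0.631 to 0.989 and 0.834 to 1.22. Lymphocyte genes (4 of 7), 2 of them higher and 2 lower, summed to 0.678 to 0.839 in controls and to more than that on every hypoxia array, up to 1.50. CD247 had the highest level of the 4 and weighs most in that sum. The log2 differences were 1.17 for CD247 and 0.75 for XCL1, but -1.08 for CD3E and -0.53 for CD3D, so the sum does not speak for the list. Pituitary genes (4 of 9) gave 6.53 to 7.05 in hypoxia and 3.91 to 7.74 in controls. LHB had the highest level of these and weighs most in the sum, which hides uneven levels of others. PRL was at 1.13 on control replicate 4 and between -3.80 and -3.46 on the other controls, with every hypoxia array lower. CGA ran from -6.47 on control replicate 2 to 1.39 on control replicate 3. Erythroid genes (3 of 5) gave 12.9 to 17.5 in hypoxia and 4.14 to 37.0 in controls. As for the arrays themselves, 83.1% to 84.8% of the spots were well above background in hypoxia and 77.2% to 86.4% in controls.

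On the 5 probes every hypoxia array lay above every control array. Leaving out arrays or taking the controls of 1 slide could therefore change no sign, so the signs there are no separate support. The filters on dim probes, the random block for slide and the other prior left the differences themselves unchanged. The log2 differences of the 5 probes were positive under all 13 other ways of processing and with each array left out. They ran from 0.42 to 0.77 for GRM7 probe 1, 0.44 to 0.72 for GRM7 probe 2, 0.49 to 0.87 for HOMER probe 1, 0.82 to 0.89 for HOMER probe 2 and 0.44 to 0.51 for CAMK2. With each array left out in turn, the widest range was that of GRM7 probe 2, from 0.48 without hypoxia replicate 2 to 0.85 without hypoxia replicate 3. CAMK2 moved least on that account, from 0.41 to 0.52.

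**Figure D5:**
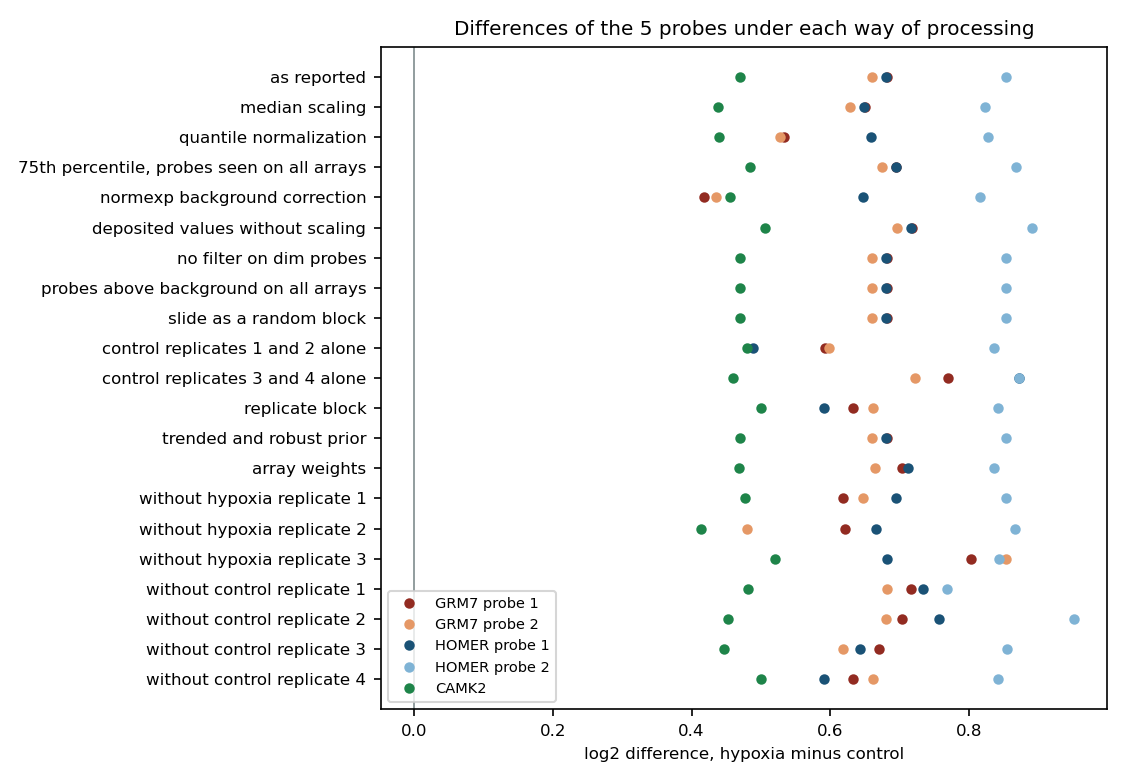
Log2 difference, hypoxia minus control (x axis), of the 5 probes under each way of processing and with each array left out (y axis, 1 line per setting, 1 colour per probe). All points lie above 0, the GRM7 probes are lowest with normexp background correction, at 0.42 and 0.44, and HOMER probe 2 stays between 0.77 and 0.95 throughout. Where arrays are left out the sign was fixed, since every hypoxia array lay above every control array.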

How the data were processed

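Cy3-labelled RNA from the hypothalamus of 7 fetuses was measured on 1-colour Agilent sheep arrays, 1 array per fetus, per the labels' protocols. The titles of the samples gave each group and number. Per the file headers, Agilent Feature Extraction 10.1.1.1 gave the background-subtracted processed intensity of each spot. The authors' deposited log2 value table equals the log2 of that intensity within 5e-09, unscaled between arrays (medians 8.45 to 9.01).

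From each log2 intensity the 75th percentile of that array (2024 to 2908, control spots apart) was subtracted. Outlier spots (34 probe values) and control spots were left out. A probe was tested when well above background on 3 or more of 7 arrays (12711 of 15008), with lmFit and eBayes of limma 3.58.1 in R 4.3.3, 2-sided, and Benjamini-Hochberg adjustment over all of them at 0.05. The procedure was tested on simulated data in which the arrays were independent and slides had no effect, unlike the layout here. The number of arrays limits the precision.

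Probe sequences were read from the scanner files. Gene names came from the RefSeq table of the ARS-UI_Ramb_v3.0 assembly (701 probes by accession, 125 by gene ID, 497 by symbol, 20 by synonym), from older names in the files (102) or from symbols only in the files (116). Another 100 had a locus number only and 13343 stayed unnamed, leaving 957 named genes. A few items (4 probes) are not reported here and were left out of the gene counts and lists. GRM7 is listed under the older name MGLUR7. A gene's main probe was its tested probe with the highest mean level, which is probe 1 for GRM7 and HOMER.

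The members, gene lists and tests were chosen with earlier results of these data known. Named were all probes of GRM7, HOMER and CAMK2, every measured receptor, scaffold and calcium signalling gene, and in each other list the 2 genes with the highest and the 2 with the lowest difference. The 5 named genes with the highest r for each member were also named. Alternatives were other scalings, normexp (offset 50), the deposited log2 values, other filters, a random block for slide, the controls of 1 slide only, a replicate block, leaving each array out, a trended and robust prior and array weights.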

Additional observations from a re-analysis of the deposited data

Results flagged for a closer look

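In each of 25 sets of 4 control values (the 5 probes of GRM7, HOMER and CAMK2 and the 20 other glutamate synapse genes), the highest and the lowest array were set against the other controls. Chance alone would make about 1.25 of the 25 sets stand apart, and 1 did, which was no probe of GRM7, HOMER or CAMK2. GRM6 was at -5.44 on control replicate 4, while the other controls lay between -6.03 and -6.02.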

How the results depend on the processing

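The number of probes past an adjusted p of 0.05, 2 in the reported analysis, changed with most settings. It was 0 with the 75th percentile taken over probes above background on all arrays, 0 with no filter on dim probes and 0 with the replicate block. It was 4 with control replicates 3 and 4 alone and 4 with array weights, 10 with normexp and 10 with the deposited values. Among probes above background on all arrays it was 25, with the trended and robust prior 57, and with control replicates 1 and 2 alone 232. It ran from 0 to 6 with 1 array left out (6 without control replicate 2, 0 without control replicate 1, 3 or 4), and 1990 probes passed at an unadjusted p under 0.05. Of the 1990, 1112 were higher and 878 lower, against 660 and 321 with the deposited values.

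Of the 20 other glutamate synapse genes, 0 passed the adjusted threshold in any of 13 other settings or with an array left out, and 4 passed at an unadjusted p under 0.05. Their median log2 difference of 0.12 was 0.061 with control replicates 1 and 2 alone and ran from 0.076 (without control replicate 3) to 0.165 with an array left out. GRM7 probe 1 moved to 0.42 with normexp. HOMER probe 1 was 0.49 with control replicates 1 and 2 alone and 0.87 with control replicates 3 and 4 alone. With 1 array left out, GRM7 probe 1 ran from 0.62 to 0.80, HOMER probe 1 from 0.59 to 0.76 and CAMK2 from 0.41 to 0.52. None of the 5 probes changed sign, which the separation of their groups fixes for settings that leave out arrays. The median of the glutamate synapse genes kept its sign too, while GRM8, NOS1, GRIN1, SLC1A1, GRM3 and GRIA4 changed sign under 1 to 4 other settings each. The causes of these shifts were not tested.

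The groups share replicate numbers 1 to 3, but no label states that equal numbers mark paired fetuses. The deviations of same-numbered arrays correlated at 0.12, 0.09 and 0.11, and each of these arrays correlated best with its own number. These values do not settle whether the numbers mark pairs. Because no label states it, the numbers were not taken as pairs. With the replicate block, in which control replicate 4 has no partner and adds nothing to a difference, GRM7 probe 1 gave 0.63, HOMER probe 1 0.59, CAMK2 0.50 and the median of the glutamate synapse genes 0.12. With slide as a random block the within-slide correlation was -0.03. The number of arrays and, for GRM7, a low raw signal over the local background limit these values.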
